A study of Mus musculus with 4 samples.

Results

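The genes of 9 integrin subunits and of 1 integrin-binding protein were followed in heart muscle cells after overexpression of the splicing regulator RBFOX2. The 10 genes were chosen by name from the 48432 gene rows of the authors' table: the alpha subunits Itga1, Itga5, Itga6, Itga7, Itga9 and Itgav, the beta subunits Itgb1, Itgb5 and Itgb6, and Itgb1bp2. Itgb1bp2 encodes melusin, a muscle protein that binds the cytoplasmic tail of the beta1 subunit, and is itself no subunit. Each name matched 1 row, and the 9 subunits are part of a mouse set of 27 (18 alpha and 9 beta genes) in the same table.

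The study sequenced polyadenylated RNA of cardiomyocytes that had been freed from mouse hearts by Langendorff perfusion. The control group had the genotype MHC, and the other had the genotype RbFox2 and is called Rbfox2 OE here. All mice were C57BL x FVB and had eaten a doxycycline diet for 3 days, so the controls shared the drug. Each group had 2 libraries, which the labels do not say came from separate mice, and the labels give neither the age nor the sex of the mice, nor the promoter that drove the transgene. The series title names a non-muscle isoform of RBFOX2 and cardiac conduction defects in myotonic dystrophy.

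The authors' table holds 1 pooled value per gene and group in FPKM, fragments scaled to transcript length and to the mapped fragments, with a lower and an upper bound whose level is not stated. It has no value per library, so there was no spread between replicates and no test, and the differences below are descriptions of the pooled values. FPKM is a level per transcript length, so levels of different genes can be set side by side. Levels are given with these bounds in parentheses. Differences are given as the log2 ratio of FPKM plus a pseudocount of 1, Rbfox2 OE over control, and are followed by the lowest and highest log2 ratio that the bounds of both groups allow. A gene was counted as different where the ratio reached 2-fold and, separately, where the bounds of the groups did not overlap. The overexpressed gene matched the labels: Rbfox2 stood at 14.7 FPKM in MHC cells and 293 in Rbfox2 OE cells.

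Integrins are transmembrane receptors made of 1 alpha and 1 beta subunit. They tie the extracellular matrix to the actin cytoskeleton and signal in both directions. The alpha subunit largely sets the ligand, the cytoplasmic tail of the beta subunit recruits talin and kindlin, and in heart muscle the receptors sit at costameres, where Z-discs meet the membrane and its laminin-rich basement membrane. In adult cardiomyocytes the alpha7 and beta1 pair is the typical laminin receptor, and several subunits, among them alpha6, alpha7 and beta1, are made as alternatively spliced forms, which a value for the whole gene cannot separate.

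Of the 10 genes, 9 met neither criterion, and the exception was Itgb6, the least abundant of the 10. It was the 1 gene at least 2-fold lower in Rbfox2 OE, and 0 were 2-fold higher, where 10% of the 11697 genes averaging 1 FPKM or more were 2-fold lower and 6.97% were 2-fold higher. Separate bounds were found for 1 of the 10, again Itgb6, on the lower side, against 9.33% of all genes compared, and for 0 on the higher side, against 6.67%. Itgb6 met both criteria, as did 7.42% of all genes compared on the lower side. These shares of the members are near those of all genes. The median log2 ratio was -0.16 over the 10 genes and -0.06 over all genes compared, and 6 of the 10 had an absolute log2 ratio under the median of all genes, 0.45. All 10 had the status OK in both groups and passed the minimum mean, Itgb6 only through its control value. Rescaling the groups without mitochondrial genes and the 10 most abundant genes moved the median of all genes from -0.06 to 0.07, and the 2-fold genes from 815 higher and 1172 lower to 1077 higher and 913 lower.

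**Figure D1:**
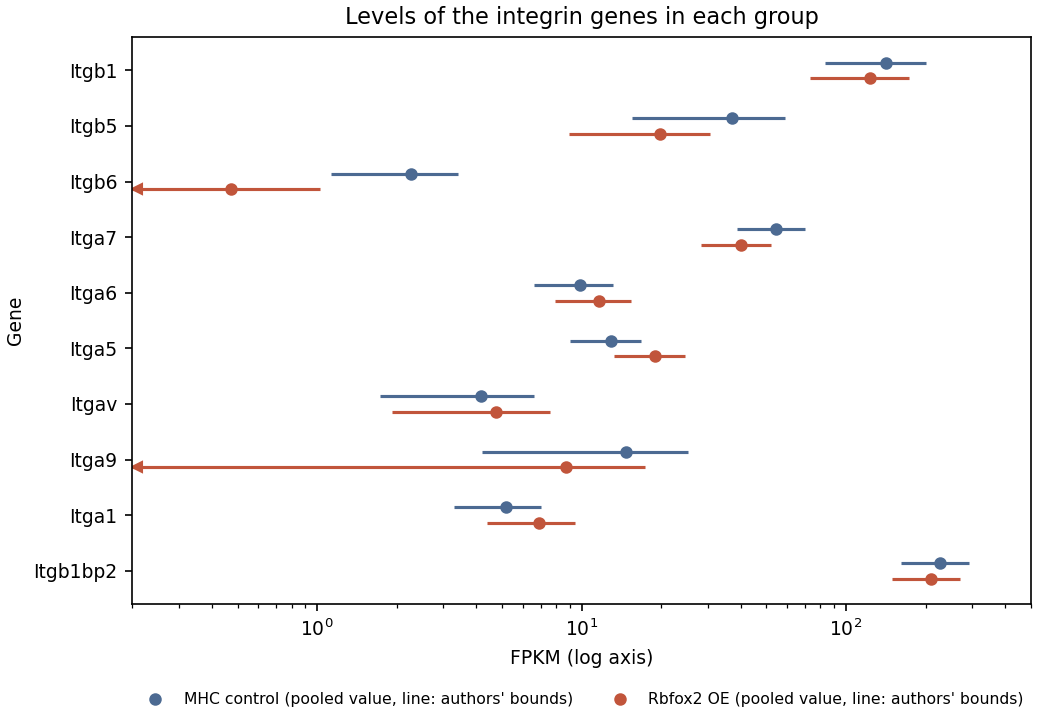
Pooled FPKM of the 10 genes (log axis) in the MHC control and in Rbfox2 OE, with the authors' bounds as lines; an arrowhead marks a lower bound of 0, which a log axis cannot show. The bounds of the groups overlap for every gene plotted except Itgb6, at 2.26 FPKM in MHC cells and 0.471 in Rbfox2 OE cells.

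The common beta subunit and its muscle partner stood highest. Itgb1, which pairs with most alpha subunits, is on chromosome 8 (ENSMUSG00000025809, GRCm38, 128685654 to 128733200, plus strand) and stood at 142 FPKM (83.0 to 201) in MHC cells and 123 FPKM (72.8 to 173) in Rbfox2 OE cells. Its log2 ratio was -0.21, and the bounds allowed -1.45 to 1.05, so that a 2-fold difference in either direction lies inside them. Melusin has been described as a mechanical sensor of the heart muscle cell with chaperone activity. Its gene Itgb1bp2, on the X chromosome (ENSMUSG00000031312, 101449088 to 101453541, plus strand), stood at 227 FPKM (162 to 292) and 209 FPKM (149 to 269). The log2 ratio was -0.11 (-0.96 to 0.73) and turned to 0.041 on the rescaling above, so no direction is given. The level of Itgb1bp2 relative to Itgb1 in the same group, which no scaling between groups can move, was 1.60 in MHC cells and 1.70 in Rbfox2 OE. The ranges that the bounds allow for this ratio, 0.805 to 3.51 and 0.863 to 3.70, were wide and overlapped. The 4 genes listed as partners of CHORD-domain chaperones such as melusin (Chordc1, Sugt1, Hsp90aa1 and Hsp90ab1) were neither 2-fold apart nor separate in their bounds. Bounds overlapped for 9826 of the 11697 genes compared, and 6.97% were 2-fold higher and 10% were 2-fold lower. Nothing particular to these 4 genes is read from this.

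The laminin-binding alpha subunits were led by Itga7. This gene (ENSMUSG00000025348, chromosome 10, 128933818 to 128958282, plus strand) stood at 54.2 FPKM (38.7 to 69.7) in MHC cells and 40.1 FPKM (28.3 to 51.9) in Rbfox2 OE cells. The bounds overlapped, and the log2 ratio was -0.43 (-1.27 to 0.41). Itga6 (ENSMUSG00000027111, chromosome 2, 71745616 to 71858416, plus strand), a laminin receptor subunit shared with endothelium and epithelia, stood at 9.86 FPKM (6.62 to 13.1) and 11.7 FPKM (7.94 to 15.4). Its log2 ratio was 0.22 (-0.66 to 1.11). Itga7 was thus the higher of the pair in both groups, and its bounds did not reach those of Itga6 in either.

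The fibronectin receptor subunit Itga5, which binds the sequence RGD in its ligand, had the highest log2 ratio of the 10. The gene (ENSMUSG00000000555, chromosome 15, 103344286 to 103366763, minus strand) stood at 12.9 FPKM (9.02 to 16.8) in MHC cells and 18.9 FPKM (13.3 to 24.5) in Rbfox2 OE cells, a log2 ratio of 0.52 (-0.32 to 1.35). Itga1, which forms a collagen receptor with beta1, lies on chromosome 13 (ENSMUSG00000042284, 114953096 to 115101964, minus strand) and stood at 5.16 FPKM (3.30 to 7.03) and 6.92 FPKM (4.37 to 9.47). Its log2 ratio was 0.36 (-0.58 to 1.28). For both genes the bounds of the groups overlapped. Within a group, the ratio of Itga5 to Itga7 was 0.238 in MHC cells and 0.471 in Rbfox2 OE, a change of 1.98 times. That pair was chosen after the values were seen, and the ranges that the bounds allow for this ratio, 0.129 to 0.435 and 0.256 to 0.865, overlapped.

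Itga9, whose product pairs with beta1 and binds tenascin C and osteopontin, had the widest range of log2 ratios that the bounds allow. It lies on chromosome 9 (ENSMUSG00000039115, 118606690 to 118901003, plus strand) and stood at 14.8 FPKM (4.20 to 25.3) in MHC cells and 8.71 FPKM (0 to 17.4) in Rbfox2 OE cells. The log2 ratio of -0.70 could lie anywhere from -4.72 to 1.83. The upper bound lay 71.6% above the value in MHC cells and 100.1% above it in Rbfox2 OE, where the median over all genes compared was 38.4% and 39.3%. Among the 10 genes this distance was the largest in MHC cells, and in Rbfox2 OE that of Itgb6 was larger, at 117%. The table places Itga9 in 1 locus with 5 other rows, of which Ctdspl reached a mean of 1 FPKM, at 1.02 FPKM in MHC cells and 1.94 in Rbfox2 OE cells.

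The alphav subunit and its beta partners form receptors that bind RGD ligands such as vitronectin and, in the alphav and beta6 pair, the latency peptide of TGF-beta. Itgav (ENSMUSG00000027087, chromosome 2, 83724397 to 83806916, plus strand) stood at 4.17 FPKM (1.73 to 6.60) in MHC cells and 4.76 FPKM (1.91 to 7.60) in Rbfox2 OE cells, a log2 ratio of 0.16 (-1.38 to 1.66). Itgb5 (ENSMUSG00000022817, chromosome 16, 33829665 to 33949338, plus strand) stood at 37.0 FPKM (15.5 to 58.5) and 19.7 FPKM (8.98 to 30.5). Its ratio was 0.533, the log2 ratio with the pseudocount was -0.88 (-2.58 to 0.93), and the bounds overlapped, so Itgb5 met neither criterion. The level of Itgb5 was above that of its alphav partner in both groups, with bounds that did not meet. The ratio of Itgav to Itgb5 was 0.112 in MHC cells and 0.241 in Rbfox2 OE, and the ranges that the bounds allow overlapped.

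Itgb6 is best known from epithelia. The gene (ENSMUSG00000026971, chromosome 2, 60598292 to 60722643, minus strand) stood at 2.26 FPKM (1.13 to 3.40) in MHC cells and 0.471 FPKM (0 to 1.02) in Rbfox2 OE cells. The plain ratio was 0.208 and the log2 ratio with the pseudocount was -1.15 (-2.14 to -0.07). The upper bound of Rbfox2 OE and the lower bound of the control were close, and they overlapped after the rescaling above. The log2 ratio became -0.41 with a pseudocount of 5 FPKM and -2.05 with 0.1 FPKM. Epithelial markers were low and stood the other way: the summed level of Epcam, Cdh1, Krt8, Krt18 and Krt19 was 3.19 FPKM in MHC cells and 8.24 in Rbfox2 OE cells, higher for 5 of 5, and none was listed at 0. Epcam and Cdh1 were under 1 FPKM in both groups. Bounds were separate for 2 of the 5, Epcam and Krt18, and overlapped for the others. Of the 11697 genes compared, 5408 stood higher in Rbfox2 OE. The part of epithelial cells in the level of Itgb6 was not tested.

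**Figure D2:**
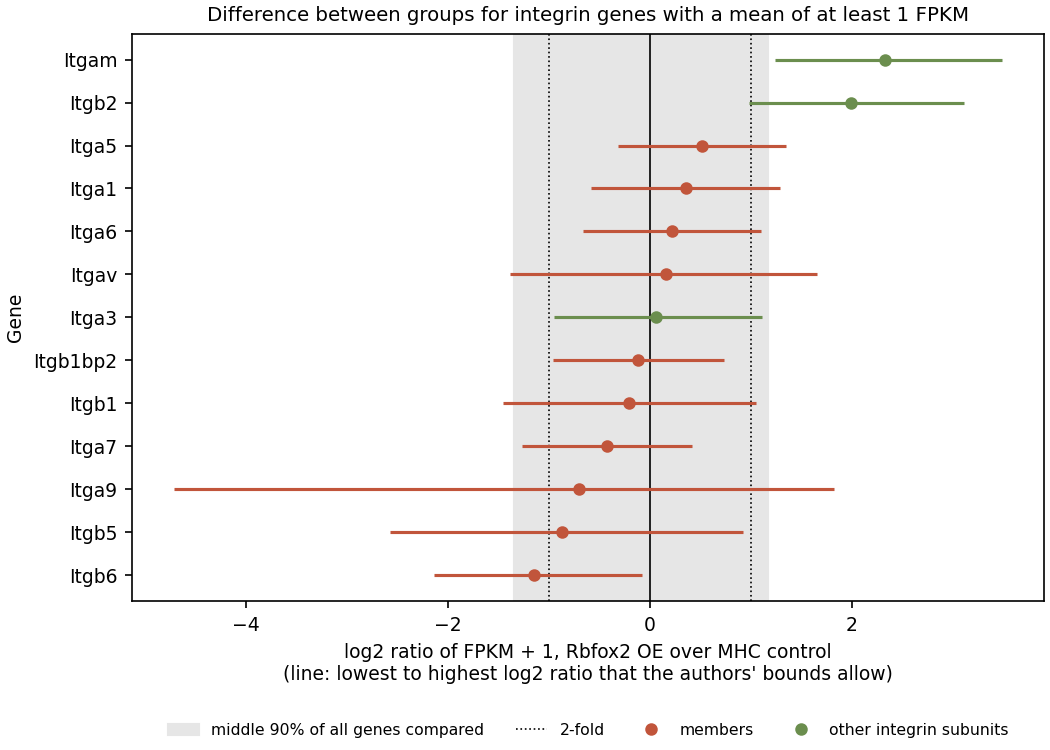
Log2 ratio of FPKM + 1 (Rbfox2 OE over MHC control) for the 10 genes and the 3 other integrin subunits averaging 1 FPKM or more; lines span the ratios that the authors' bounds allow, grey shading covers the middle 90% of all 11697 genes compared, and dotted lines mark 2-fold. Lines of the 10 genes cross 0 except that of Itgb6, and Itgam and Itgb2 lie above 0.

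Of the other 18 integrin subunits, 17 had a higher value in Rbfox2 OE, 3 averaged 1 FPKM or more, and 11 were under 1 FPKM in both groups. Of the 11697 genes averaging 1 FPKM or more, 5408 had a higher value in Rbfox2 OE and 6289 a lower one. Most of the 18 fall under that mean, so these counts come from genes of unlike level. Itgb2 and Itgam, the beta2 and alphaM chains of the leukocyte receptor Mac-1, were above 2-fold with separate bounds. Itgam stood at 1.10 FPKM (0.453 to 1.75) in MHC cells and 9.58 FPKM (5.48 to 15.3) in Rbfox2 OE cells, a log2 ratio of 2.33, summed over 2 rows of that name. Itgb2 stood at 1.28 FPKM (0.369 to 2.20) and 8.09 FPKM (5.31 to 10.9), a log2 ratio of 1.99. Itga3, a further laminin receptor subunit, stood at 3.68 FPKM and 3.88 FPKM with overlapping bounds. Among all 18, without the minimum mean, 5 had separate bounds on the higher side and 0 on the lower; the additional ones were Itgax, Itgb3 and Itgb7, named after their values were seen. Without that minimum, 4.62% of the 22831 genes with a value above 0 in either group had separate bounds on the higher side and 5.26% on the lower.

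Markers of leukocytes were higher beside these leukocyte integrins. The 10 macrophage and leukocyte markers, none at 0, summed to 112 FPKM in MHC cells and 404 in Rbfox2 OE cells and were higher in 10 of 10, and their part in the values of Itgam and Itgb2 was not tested. The same held for 9 of 9 fibroblast markers (231 and 545 FPKM), 8 of 8 endothelial markers (220 and 387 FPKM) and 8 of 8 smooth muscle and pericyte markers (147 and 328 FPKM). Bounds were separate for 9 leukocyte, 6 fibroblast, 3 endothelial and 3 smooth muscle and pericyte markers, and overlapped for the others of these lists. Of all 11697 genes compared, 5408 stood higher in Rbfox2 OE, and 6.67% had separate bounds on the higher side. It also held for 4 of 4 platelet markers (7.56 and 28.4 FPKM), 3 of 3 mesothelial markers (9.89 and 22.6 FPKM) and 3 of 3 red blood cell markers (55.5 and 285 FPKM). Among the platelet markers only Pf4 averaged 1 FPKM or more, and it made up most of their sum (7.34 and 26.9 FPKM). Gp9 and Gp1bb were under 1 FPKM in both groups with overlapping bounds. Bounds were separate for 2 of the mesothelial and 3 of the red blood cell markers. The cardiomyocyte markers summed to 49235 FPKM in MHC cells and 33534 in Rbfox2 OE cells. Of these 9, 6 were lower, Ttn was higher, and Myh6 and Mb were listed at 0 in both groups with the status HIDATA, which Cuffdiff gives to a locus with too many fragments. Bounds were separate for 3 of the cardiomyocyte markers, Tnni3, Actn2 and Ryr2, all on the lower side, where 9.33% of all genes compared had them. Most of the 10 genes, among them both some that stood higher and some that stood lower in Rbfox2 OE, are also known from endothelium, fibroblasts or smooth muscle, and the part of these cells in the members' values was not tested. Fewer cells of a type and less RNA per cell cannot be told apart in these bulk samples.

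The make-up of the expressed alpha set was described from the same levels. The 18 alpha genes summed to 108 FPKM in MHC cells and 110 in Rbfox2 OE cells. Itga7 made up 50.1% of that sum in MHC cells and 36.3% in Rbfox2 OE, and the shares that the bounds allow, 31.3% to 71.4% and 20.4% to 57.9%, overlapped. It had the largest share in both groups. In Rbfox2 OE the shares that the bounds allow for Itga7 overlapped those for Itga5 and Itga9. Its FPKM bounds there (28.3 to 51.9) did not meet those of Itga5 (13.3 to 24.5) or Itga9 (0 to 17.4). Itga9 took 13.6% and 7.89%, Itga5 11.9% and 17.1%, Itga6 9.12% and 10.6%, Itga1 4.77% and 6.27%, and Itgav 3.85% and 4.31%. By the pooled values Itga9 thus stood second among the alpha genes in MHC cells, and Itga5 in Rbfox2 OE. The FPKM bounds of Itga9 and Itga5 overlapped in both groups, as did the shares that the bounds allow, so neither order is settled. These shares were 3.15% to 28.9% and 6.15% to 22.6% in MHC cells, and 0% to 20.9% and 8.76% to 31.7% in Rbfox2 OE. The 3 laminin-binding subunits together took 62.6% and 50.4%, the 4 RGD-binding subunits 16.9% and 23.2%, and the 4 collagen-binding subunits 5.28% and 7.26%. The 5 leukocyte alpha subunits took 1.46% and 10.9%, and without them the laminin share was 63.5% in MHC cells and 56.6% in Rbfox2 OE. Among the 9 beta genes, Itgb1 took 77.3% of 184 FPKM in MHC cells and 79.4% of 155 FPKM in Rbfox2 OE, and Itgb5 took 20.1% and 12.7%.

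**Figure D3:**
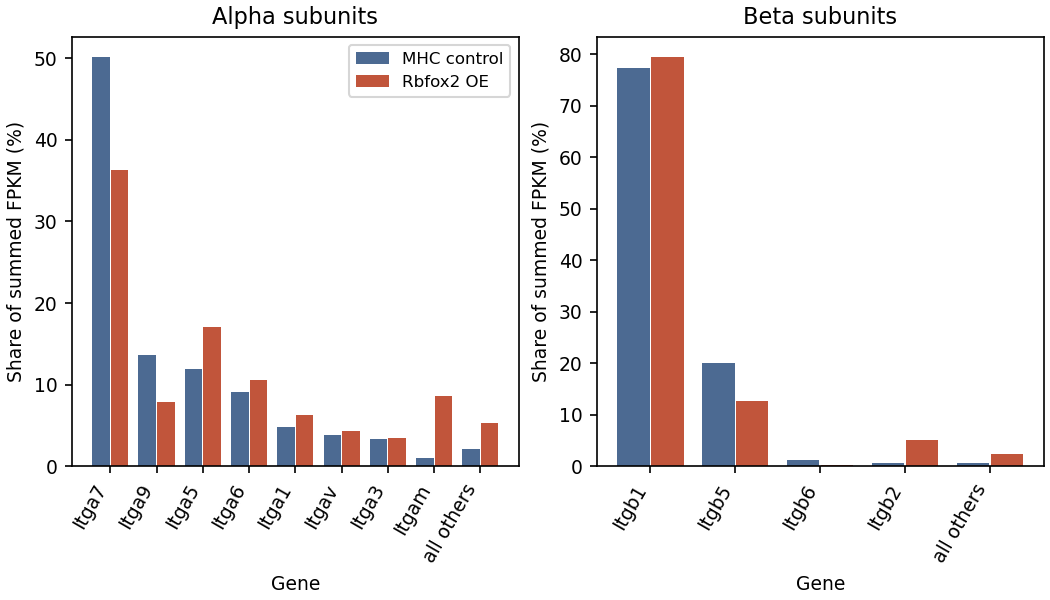
Share of the summed FPKM of all 18 alpha genes (left) and all 9 beta genes (right) taken by each subunit in the MHC control and in Rbfox2 OE; each bar is 1 pooled value per group, without error bars. Itga7 has the largest alpha share in both groups, at 50.1% and 36.3%, and Itgb1 the largest beta share.

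Cytoplasmic proteins that join integrins to actin were compared from a list of 32 genes, of which 30 averaged 1 FPKM or more. Of these, 3 were 2-fold higher and 5 were 2-fold lower, and bounds were separate for 1 higher and 3 lower, with a median log2 ratio of 0.14. Over all genes compared the shares were 6.97% and 10% at 2-fold and 6.67% and 9.33% for separate bounds, so these counts are few and nothing particular to the list is read from them. The muscle-enriched talin Tln2, which binds beta subunit tails, was lower, at 12.3 FPKM (8.72 to 15.9) against 5.14 FPKM (3.52 to 6.75). Lims1, the PINCH1 adaptor of integrin-linked kinase, stood at 36.5 FPKM in MHC cells and 13.0 in Rbfox2 OE cells, and the talin-binding Kank2 at 33.7 and 11.6 FPKM, both with separate bounds. The actin crosslinker Actn1 was the 1 gene with separate bounds on the higher side, at 12.6 FPKM (8.69 to 16.4) in MHC cells and 29.2 FPKM (20.3 to 38.1) in Rbfox2 OE cells. The remaining 2-fold genes had overlapping bounds. Of these, Tns1 (288 FPKM in MHC cells and 85.2 in Rbfox2 OE cells) and Arhgef7 (34.5 and 14.4 FPKM) were lower. Flna (11.9 and 31.4 FPKM) and Fermt3 (0.816 and 2.89 FPKM) were higher. The ubiquitous talin Tln1, the kindlin Fermt2 and the kinase gene Ilk, named here after their values were seen, had log2 ratios of 0.09, 0.13 and -0.18 with overlapping bounds. Of 7 lateral membrane partners, 2 had separate bounds, Plaur (2.67 and 12.2 FPKM) and the tetraspanin Cd9 (18.6 and 41.9 FPKM), both higher in Rbfox2 OE.

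Matrix ligands of the receptors were mostly higher in Rbfox2 OE. Of 37 matrix ligand genes found, 31 averaged 1 FPKM or more; 13 were 2-fold higher and 3 were 2-fold lower, bounds were separate for 12 higher and 1 lower, and the median log2 ratio was 0.64. Over all genes compared the shares were 6.97% higher and 10% lower at 2-fold, and 6.67% higher and 9.33% lower for separate bounds. The difference between the lists was not tested, and 4 of the ligand genes are also in the fibroblast list, whose summed level was higher in Rbfox2 OE. The alpha9 ligands Spp1 (osteopontin) and Tnc (tenascin C) stood at 0.0959 and 0.108 FPKM in MHC cells, and Rbfox2 OE had 40.4 and 5.23 FPKM. Both passed the minimum mean only through Rbfox2 OE. Thbs1, a matricellular protein, stood at 2.45 and 18.7 FPKM, and the fibrillar collagen Col3a1, also a fibroblast marker here, at 16.2 and 74.2 FPKM. Fn1, fibronectin, the ligand of alpha5 and beta1 and named for that after its value was seen, stood at 9.78 FPKM (6.36 to 13.2) in MHC cells and 37.2 FPKM (21.9 to 52.5) in Rbfox2 OE cells. The laminin chain Lama5 was the 1 ligand gene lower with separate bounds, at 16.6 FPKM (10.7 to 22.6) against 5.29 FPKM (3.58 to 7.01).

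**Figure D4:**
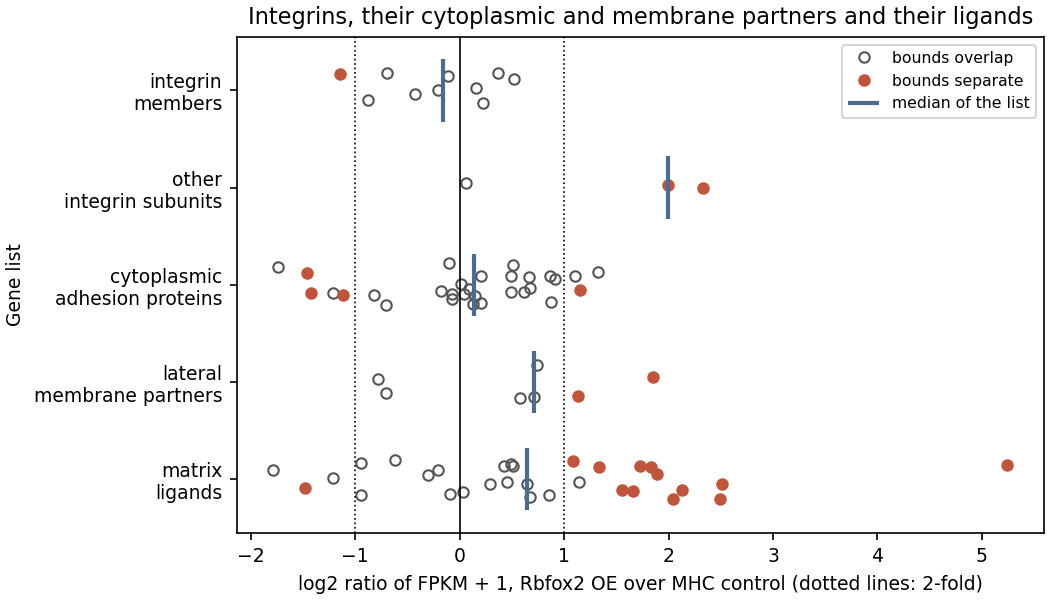
Log2 ratio of FPKM + 1 (Rbfox2 OE over MHC control) of each gene averaging 1 FPKM or more in the integrin genes followed here, the other integrin subunits, cytoplasmic adhesion proteins, lateral membrane partners and matrix ligands; filled points have separate bounds, vertical bars are list medians and vertical jitter has no meaning. Filled points make up 1 of 10 integrin genes and 13 of 31 matrix ligands.

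Because the overexpressed protein binds RNA at UGCAUG, the transcripts of the 10 genes were searched for TGCATG in the sense strand of the annotated 3′ UTR (principal GENCODE M21 transcript, GRCm38). Of the 10, 3 held it: Itga9 with 3 matches in 3671 bases, Itga1 with 2 in 6994 bases and Itgav with 1 in 3581 bases. Of the 10812 protein-coding genes compared, 32.7% held a match, and in the longest of 5 equal classes of 3′ UTR length, to which all 3 belong, 71.7% did. The 6 matches are shown, with the motif in capitals, because they place the searched letters in the members; a match describes the letters only. Itga1 lies on the minus strand of chromosome 13 (114957522 to 114957547 and 114954684 to 114954709), Itga9 on the plus strand of chromosome 9 (118899983 to 118900008, 118900744 to 118900769 and 118900768 to 118900793), and Itgav on the plus strand of chromosome 2 (83803810 to 83803835).
Itga1, first match: aactgaacttTGCATGtcttctcttt
Itga1, second match: tttccctctgTGCATGgcctgcagga
Itga9, first match: tttgacaggcTGCATGaagttgtctg
Itga9, second match: ggtggtttgtTGCATGgcaggcacct
Itga9, last match: ctctgctctcTGCATGtctgcagctt
Itgav: actttgcaatTGCATGgacttagatt
The genes with a match had log2 ratios of -0.70 (Itga9), 0.36 (Itga1) and 0.16 (Itgav), all with overlapping bounds. Itgb6, with the 1 pair of separate bounds, held no match in 2193 bases, and 45.5% of genes in its length class held one. Introns, where RBFOX proteins act on splicing, were not searched.

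The position of the genes gave limits of its own. Annotated exons of Itga7 overlapped those of Mettl7b on the opposite strand, at 1.64 FPKM in MHC cells and 1.40 in Rbfox2 OE cells, and those of Itgav overlapped Gm13684, also on the opposite strand. Exons of Itga1 overlapped Gm49395 on the same strand, which an assignment by strand cannot separate, and the table placed Itga1 in 1 locus with Pelo, at 8.89 and 13.2 FPKM. Whether fragments were assigned by strand is not given in the sources used here. Of all 50-base sequences of the principal transcripts, 0% were shared with another gene for Itga5, Itga7, Itga9, Itgav, Itgb1 and Itgb1bp2, 0.379% for Itgb6, 5.50% for Itga1, 6.50% for Itga6 and 8.17% for Itgb5. Gm29397, which shares sequence with Itga6, was listed at 0 in both groups, and Gm38317, which shares sequence with Itgb5, stood at 0.160 and 0.0883 FPKM. The genes spanned from 4.45 kb (Itgb1bp2) to 294 kb (Itga9), and across the 10 genes Spearman's rho between span and log2 ratio was -0.35, a description over genes of the same pooled libraries. No value over all genes compared is given beside it, so nothing particular to the 10 genes is read from it.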

How the data were processed

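Polyadenylated RNA was sequenced from TruSeq stranded libraries on an Illumina HiSeq4000, per the labels' protocols. The submitters' processing notes name Trimmomatic, STAR 2.4.2a, Picard 1.119, HTSeq, DESeq2 and Cuffdiff 2.2.1, with GRCm38 and mm10. The values are FPKM that the authors deposited as a Cuffdiff gene table, 1 per group with bounds, per the file headers. The normalization mode and annotation are not given in the sources used here. Counts of fragments, and so the depth per library, are unknown, and p-values could not be computed.

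Rows sharing a name (110 names) were summed, and log2 ratios were computed with pandas 2.3.3 (pseudocount 1, mean of at least 1 FPKM, 2-fold). The calculation was tested on simulated data with 4-fold changes. Recovery was judged for genes of at least 5 FPKM, a level above that of Itgb6, so its call is not covered. Of the identifiers, 99.2% were found in GENCODE M21 (GRCm38), the source of coordinates and sequences. The members and lists were chosen with earlier results of these data known. Named genes were the members, other subunits with a mean of at least 1 FPKM and, per list, up to 4 per direction with separate bounds. Unused columns of sample values numbered 0.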

Additional observations from a re-analysis of the deposited data

How the results depend on the processing

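No paired analysis was possible because each group is given as a single pooled number, and leaving out a library was not run for that reason. Of 92 values recomputed under other settings, 83 stayed on the same side of their threshold, in the same direction, or within the tolerance set for them. A pseudocount of 5 FPKM took the log2 ratio of Itgb6 to -0.41 and the number of genes 2-fold lower to 0. A minimum mean of 5 FPKM removed Itgb6 and Itgav, leaving 0 genes 2-fold lower and 0 with separate bounds. A 1.5-fold threshold gave 3 of the 10 genes lower, where 22.1% of all genes were, and a 4-fold threshold 0, where 1.32% were. Rescaling without mitochondrial and top genes turned Itgb1bp2 to 0.041, left 0 genes with separate bounds, because the bounds of Itgb6 then overlapped, and moved the members' median from -0.16 to -0.0057. The change in the laminin share of the alpha sum was -12.2 percentage points with the leukocyte subunits and -6.99 without them. A filter on status OK was added after seeing the data. It could change no count or median of the members, because all 10 had that status. Dropping the minimum mean could change none either, because all 10 passed it. Both settings are among the 83 values above, so that number overstates how far the settings were a trial. The spread between libraries is unknown and limits every value, and the bounds are widest for Itga9, Itgb5, Itgav and Itgb6.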
